A study of Mus musculus with 6 samples.

Results

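The mRNA levels of p53, of its antagonist MDM2 and of 8 genes that p53 is known to activate were followed in murine bone marrow–derived macrophages across 3 groups of arrays. The 10 genes were *Trp53*, *Mdm2*, *Cdkn1a*, *Gdf15*, *Trp53inp1*, *Ddit4l*, *Ccng1*, *Zmat3*, *Phlda3*, and *Btg2*, chosen by name from the 34843 gene names of the array. All 10 were found, with 13 probes and 23 spots on each array. *Cdkn1a* had 3 probes, *Trp53inp1* had 2, and each other gene had 1.

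p53 is a transcription factor that is kept at a low level because the ubiquitin ligase MDM2 marks it for degradation. When DNA damage or another stress separates them, p53 accumulates and activates genes that stop the cell cycle, promote repair or start cell death, and *Mdm2* itself, which closes a feedback loop. The deubiquitinase USP7 removes ubiquitin from both p53 and MDM2, and its loss in many cell types destabilizes MDM2 and raises the p53 protein, which an mRNA array does not measure.

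The macrophages were grown from mouse marrow over 7 days. Untreated cells were compared with cells given LPS, a bacterial ligand of TLR4, at 100 ng/ml for 4 h, and with cells given 10 μM HBX41,108, an inhibitor of USP7, for 30 min before the same LPS stimulus (LPS+USP7i). Each group had 2 arrays, said to come from independent experiments, and no group received the inhibitor without LPS. The sample labels give the age of the mice as 6 to 8 weeks, and the study's methods give an older range. One label gives the LPS dose as 100 ng per microliter in place of milliliter, and no source used here states whether the cells without inhibitor received its solvent.

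The 6 arrays lay on 1 slide. Untreated, LPS, and LPS+USP7i cells each kept to their own row of it, so row and treatment cannot be told apart. The 10 macrophage marker names listed stand for 9 genes, since *Adgre1* and *Emr1* name the same gene, and all 9 were matched to the array. All 9, with *Csf1r* the brightest, were well above background on every array. Their summed signals were 735400 and 729000 on the untreated arrays, 727400 and 754100 on the LPS arrays, and 632200 and 593700 on the LPS+USP7i arrays. With LPS+USP7i, 2 of the 9 were lower than with LPS, *Cd14* with a log2 difference of −1.31 (adjusted p = 0.0184) and *Fcgr1* with −1.60 (adjusted p = 0.0317). Fibroblast markers summed to 584.2 and 555.3 in LPS cells and to between 67.3 and 102 on the other 4 arrays. *Pdgfrb* had the brightest probe of that list, and *Col1a1*, *Col3a1*, and *Pdgfra* were on no array well above background. The sums of 5 dendritic cell markers, of which *Siglech* was the brightest, were 45050 and 38060 untreated, then 25340 and 24860 for the LPS arrays and 51410 and 34660 for LPS+USP7i, while *Flt3*, *Xcr1*, and *Clec9a* among them were on no array well above background. By replicate number, 5 B cell markers, with *Cd79b* the brightest, summed higher in replicate 1 of every group (1057 and 668.5, 1153 and 532.7, 714.9 and 314.5), and 8 neutrophil markers, with *Elane* the brightest, in replicate 2 (5247 and 6960, 5870 and 11800, 6205 and 9795). Among the B cell markers, *Pax5* was well above background in LPS+USP7i cells only. It passed as higher there than with LPS (adjusted p = 0.0244) and than in untreated cells (adjusted p = 0.0105). The part of these markers in the results was not tested.

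The sequence around the annotated starts is given to show which motif letters the genes do and do not share. RefSeq windows of 300 bases (GRCm38.p6, 250 before the start and 50 after it) were at hand for 8 of the 10 genes, with 2 starts each for *Cdkn1a* and *Gdf15*, and not for *Trp53inp1* and *Zmat3*. Both strands were searched for the consensus p53 half-site and the consensus NF-κB site, which are named only, and for TGANTCA (AP-1), TGACGTCA (CRE), TGACNNNGC (ARE), TGATGCAA (CARE), and TATAAA. A p53 half-site was found in 5 of the 10 windows, and in 8.36% of the 32851 windows of all genes. Capitals mark the matches in these stretches, each given 5′ to 3′ on the strand of the gene:
Cdkn1a, upstream start, chr17:29090891-29090952, plus strand: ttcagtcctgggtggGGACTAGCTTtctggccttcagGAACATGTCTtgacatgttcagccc
Mdm2, chr10:117710920-117710959, minus strand: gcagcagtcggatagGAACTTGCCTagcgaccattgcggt
Ccng1, chr11:40755447-40755486, minus strand: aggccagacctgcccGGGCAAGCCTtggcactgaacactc
Ddit4l, chr3:137623567-137623649, plus strand: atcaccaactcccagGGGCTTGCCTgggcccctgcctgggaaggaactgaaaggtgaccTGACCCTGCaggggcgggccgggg
Trp53, chr11:69580222-69580378, plus strand: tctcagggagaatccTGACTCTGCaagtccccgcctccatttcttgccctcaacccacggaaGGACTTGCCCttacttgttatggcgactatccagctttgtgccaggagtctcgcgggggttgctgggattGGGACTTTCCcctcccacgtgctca
Btg2, chr1:134079299-134079336, minus strand: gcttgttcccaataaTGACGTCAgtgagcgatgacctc

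In *Cdkn1a* both half-sites lay before the upstream of its 2 starts, and the window of the downstream start held an ARE only. The stretches of *Mdm2* and *Ccng1* hold 1 half-site each. *Ddit4l* holds 1 half-site followed by an ARE, a motif found in 12.4% of all windows. *Trp53* holds an ARE, a half-site, and across its start an NF-κB consensus, which 4.51% of windows have. *Btg2* holds the CRE, which 1.79% of windows have, and no half-site. TATAAA, found in 13.6% of all windows, was also present in those of *Trp53* and *Ddit4l*, outside the stretches shown. No window of *Gdf15* or *Phlda3* held any of the motifs, and AP-1 and CARE, with shares of 7.81% and 0.895%, were in none of the 10. Such a match describes letters in a window and does not show that a factor binds there.

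The 3 comparisons share arrays, since the LPS arrays serve both as treated cells against untreated cells and as the reference for LPS+USP7i. When LPS+USP7i was set against LPS, 3 of the 10 genes were higher (*Gdf15*, *Trp53inp1*, and *Ddit4l*) and 2 were lower (*Cdkn1a* and *Btg2*) at an adjusted p under 0.05, while 5.51% of all genes were higher and 4.28% lower. With the replicate number as a block, *Cdkn1a*, *Trp53inp1*, and *Btg2* no longer passed, and 1426 of all genes were higher and 1125 lower. The median log2 difference of the 10 genes was 0.79, also with *Ddit4l* at the bound given with its values, and that of all genes was 0.00078. With LPS compared with untreated cells, 2 were higher (*Trp53* and *Cdkn1a*) and 3 lower (*Trp53inp1*, *Zmat3*, and *Phlda3*), beside 7.98% and 12.8% of all genes, and the medians were −0.37 and 0.0016. With the same block *Phlda3* no longer passed there, and 2936 of all genes were higher and 4713 lower. In LPS+USP7i compared with untreated cells, 4 were higher (*Trp53*, *Cdkn1a*, *Gdf15*, and *Ddit4l*) and 1 was lower (*Btg2*), beside 6.15% and 8.72%, and the medians were 0.42 and −0.0021. The genes were chosen with earlier results known, so these counts describe them and support nothing further.

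**Figure D1:**
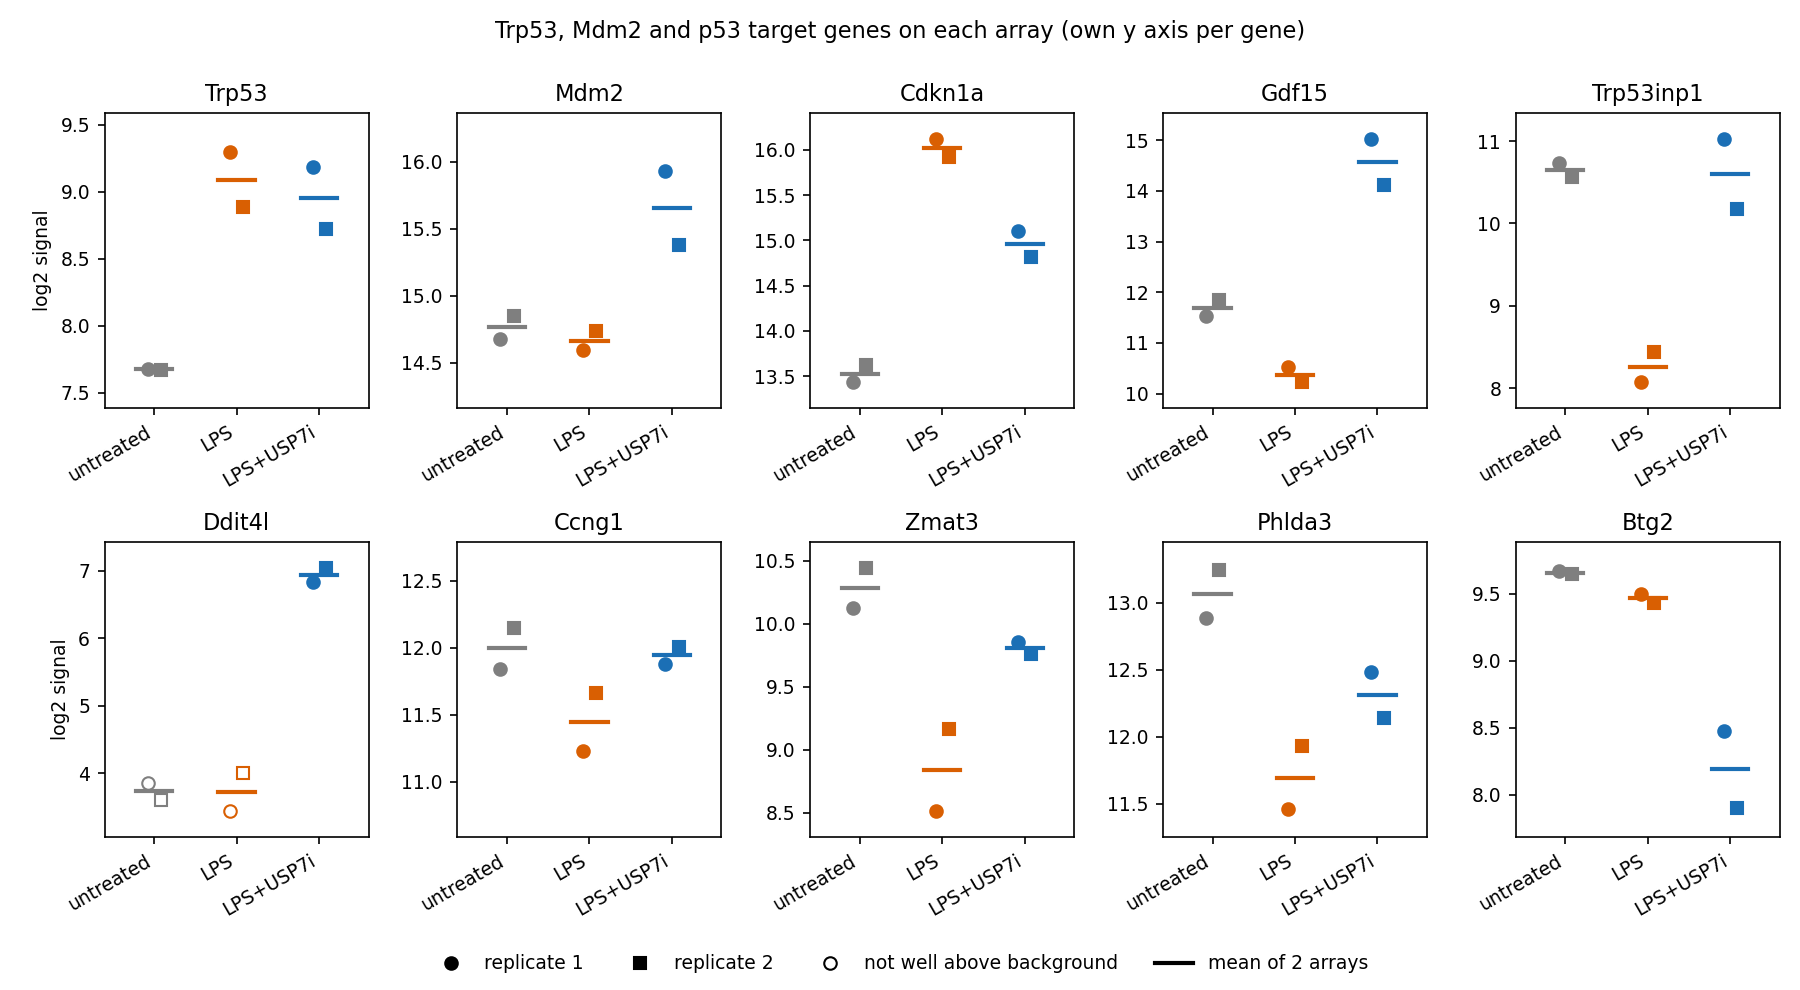
Log2 signal of the 10 genes on the 6 arrays, each gene by its brightest probe and on its own y axis; circles and squares are replicates 1 and 2, bars the mean of 2 arrays, and open symbols arrays of a group in which the probe was not well above background. *Gdf15* and *Ddit4l* are highest in LPS+USP7i cells, whereas *Cdkn1a* is highest in LPS cells and *Trp53inp1* is lowest there.

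*Trp53* was measured by a probe at chr11:69404204-69404263 (mm9, the build of all probe positions). The log2 signal read 7.68 and 7.67 on the untreated arrays, 9.30 and 8.88 on the LPS arrays, and 9.18 and 8.72 on the LPS+USP7i arrays. Both groups given LPS lay above both untreated arrays, and they overlapped each other. LPS raised *Trp53* by 1.42 (2.67-fold, standard error 0.23, adjusted p = 0.0253), and LPS+USP7i lay 1.28 above untreated cells (adjusted p = 0.0401). Between LPS+USP7i and LPS the difference was −0.14 (95% interval −0.76 to 0.49, adjusted p = 0.816), an interval that leaves room for a change of either sign.

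*Mdm2*, the ligase that opposes p53, had log2 signals of 14.68 and 14.85 without treatment, 14.59 and 14.74 after LPS, and 15.93 and 15.38 after LPS+USP7i. Both LPS+USP7i arrays were above the other 4, and the untreated and LPS arrays overlapped. The difference between LPS+USP7i and LPS was 0.99 (1.98-fold, 95% interval 0.39 to 1.58, standard error 0.22), with 1.34 in replicate 1 and 0.64 in replicate 2. It did not pass the threshold (adjusted p = 0.0798), nor did the difference of 0.89 from untreated cells (adjusted p = 0.0838). It passed against LPS with normexp background correction (adjusted p = 0.0194), with dim probes left out (0.0250), and without LPS+USP7i replicate 2 (0.0395), within a range of 0.0194 to 0.247 over all alternatives. Against untreated cells it passed with 75th percentile scaling (adjusted p = 0.00675), normexp correction (0.0204), dim probes left out (0.0269), and without LPS+USP7i replicate 2 (0.0401), and the highest value was 0.281.

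*Usp7*, which encodes the target of the inhibitor, read 11.95 and 11.98 without treatment, 12.41 and 12.40 after LPS, and 12.11 and 12.43 after LPS+USP7i on the same scale. The latter 2 groups overlapped, and their difference was −0.14 (adjusted p = 0.627). *Mdm4*, whose product binds p53 and restrains it together with MDM2, was at 6.02 and 5.55, then 6.81 and 6.63, then 5.50 and 5.75 in the same order. Both of its LPS arrays were the highest, and the difference of −1.09 with the inhibitor did not pass (adjusted p = 0.0578).

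With the inhibitor compared with LPS alone, 5.51% of all genes were higher and 4.28% lower. Among 30 regulators of p53, which include *Usp7* and *Mdm4*, 5 were higher (16.7%) and 3 lower (10%), with a median difference of 0.02. These counts were 6 and 7 with normexp correction, 2 and 4 with the deposited values, 5 and 6 with dim probes left out, and at most 1 and 4 with any one array left out. Of all genes, normexp correction gave 2879 higher and 2377 lower, the deposited values 1331 and 1237, and dim probes left out 2773 and 2366. The main fit gave 1920 and 1490. *Atm*, the kinase that signals DNA breaks to p53, fell by 2.74 with the inhibitor (adjusted p = 0.0220). *Rchy1*, a ubiquitin ligase for p53, rose by 1.19 (adjusted p = 0.0268). *Usp2*, a deubiquitinase that acts on MDM2, was not well above background in LPS cells and was at least 2.97-fold higher with the inhibitor (adjusted p = 0.0421). A bound of this kind sets each dim array to the faintest signal that was still well above background on it, or to the probe's measured signal if that was brighter.

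*Cdkn1a* encodes p21, the inhibitor of cyclin-dependent kinases through which p53 arrests the cell cycle. Its brightest probe, printed in 10 spots and designed for transcript variant 1 (chr17:29237377-29237436), read 13.43 and 13.62 in untreated cells, 16.12 and 15.92 after LPS, and 15.10 and 14.81 after LPS+USP7i. The 3 groups were fully separate, with LPS highest and untreated lowest. LPS raised this signal by 2.49 (5.64-fold, standard error 0.15, adjusted p = 0.00414), and with LPS+USP7i its log2 difference was −1.06 from LPS (2.09-fold lower, standard error 0.15, adjusted p = 0.0347) and 1.43 from untreated cells (adjusted p = 0.0139).

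The other 2 *Cdkn1a* probes also passed as higher with LPS than in untreated cells, and 1 of them passed as lower with the inhibitor. The probe for transcript variant 2 (chr17:29227986-29228045) was at 8.36 and 8.43, 9.37 and 9.75, and 8.54 and 8.26 in the order of groups above. It was highest in LPS cells, and its untreated and LPS+USP7i arrays overlapped. It rose by 1.16 with LPS (adjusted p = 0.0218), had a log2 difference of −1.16 with the inhibitor (adjusted p = 0.0388), and differed from untreated cells by 0.0078 (adjusted p = 1). A probe designed for a further transcript (chr17:29235299-29235358) was at 5.91 and 5.91, 8.05 and 7.92, and 8.55 and 7.55. Its LPS and LPS+USP7i arrays overlapped, since the 2 inhibitor arrays lay on either side of the LPS pair. It rose by 2.07 with LPS (adjusted p = 0.0307) and differed by 0.07 between LPS+USP7i and LPS (95% interval −0.92 to 1.06, adjusted p = 0.977). With the mean of the 3 probes, *Cdkn1a* no longer passed in LPS+USP7i compared with LPS, and 4 of the 10 genes did. Whether the probes differ from each other in their response was not tested.

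**Figure D2:**
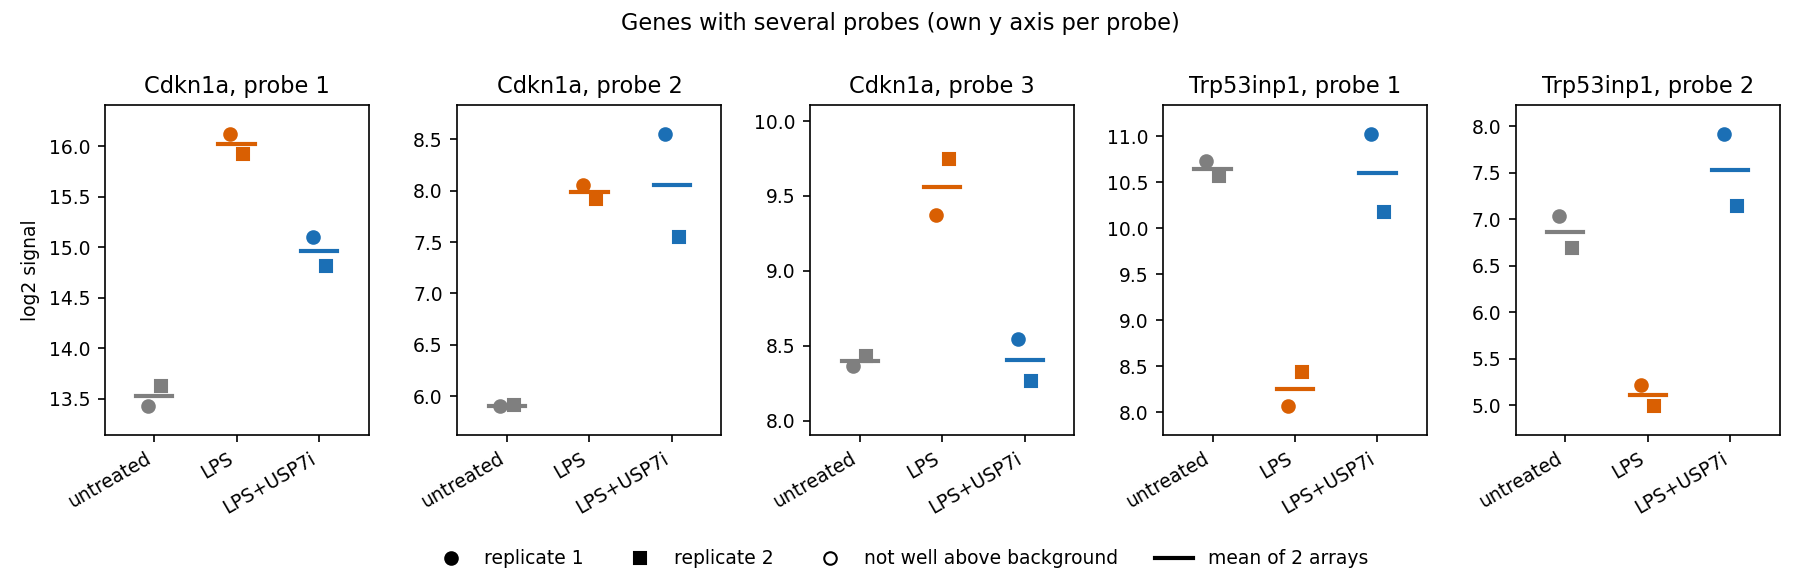
Log2 signal on the 6 arrays for the 3 probes of *Cdkn1a* and the 2 of *Trp53inp1*, each on its own y axis; symbols as in the plot of the 10 genes. Probe 1 of each gene is the brightest, and *Cdkn1a* probe 2 is for the further transcript and probe 3 for transcript variant 2. *Cdkn1a* probe 2 alone overlaps between LPS and LPS+USP7i, and both *Trp53inp1* probes are lowest with LPS.

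*Btg2*, an antiproliferative gene whose product works with mRNA deadenylases, was at 9.67 and 9.65 without treatment, 9.50 and 9.44 after LPS, and 8.48 and 7.90 after LPS+USP7i. Both inhibitor arrays were below all others. The log2 difference was −1.28 from LPS (2.43-fold lower, standard error 0.21, adjusted p = 0.0452) and −1.47 from untreated cells (adjusted p = 0.0251), while LPS alone differed from untreated cells by −0.19 (adjusted p = 0.671). *Ccng1*, which encodes cyclin G1, a partner of the phosphatase that acts on MDM2, lay between 11.23 and 12.15 on all 6 arrays. No comparison passed for it, with 0.50 between LPS+USP7i and LPS (95% interval −0.06 to 1.05, adjusted p = 0.265) and −0.55 between LPS and untreated cells (adjusted p = 0.173).

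*Gdf15*, a secreted cytokine of the TGF-β family that marks cell stress, read 11.54 and 11.85 on the untreated arrays, 10.52 and 10.22 after LPS, and 15.03 and 14.11 after LPS+USP7i. The 3 groups were separate, with LPS lowest and LPS+USP7i highest. *Gdf15* was 4.20 higher in LPS+USP7i than in LPS (18.3-fold, standard error 0.36, adjusted p = 0.0166) and 2.88 higher than in untreated cells (7.35-fold, adjusted p = 0.0191). The difference of −1.32 between LPS and untreated cells did not pass (adjusted p = 0.0924). It passed under 7 of 15 alternatives, which were 75th percentile scaling (0.0387), normexp correction (0.0183), the deposited values (0.0422), dim probes left out (0.0249), the fit of only these 2 groups (0.041), and the same fit as reached without either LPS+USP7i array, and the highest value was 0.311.

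*Trp53inp1*, which encodes a stress protein that acts in autophagy and cell death, was at 10.73 and 10.56 without treatment, 8.07 and 8.44 after LPS, and 11.03 and 10.18 after LPS+USP7i. On this probe the LPS arrays were the lowest, and the untreated and LPS+USP7i arrays overlapped. It fell by 2.39 with LPS (5.25-fold, standard error 0.34, adjusted p = 0.0188), was 2.35 higher in LPS+USP7i than in LPS (5.08-fold, adjusted p = 0.0352), and differed by −0.05 between LPS+USP7i and untreated cells (95% interval −0.97 to 0.88). The second probe fell by 1.76 with LPS (adjusted p = 0.0325) and was 2.42 higher with LPS+USP7i than with LPS (adjusted p = 0.0292), so both probes passed in both comparisons. On the second probe the LPS+USP7i arrays (7.92 and 7.15) lay above the untreated arrays (7.03 and 6.69), and that difference of 0.67 did not pass (95% interval −0.19 to 1.53, adjusted p = 0.312).

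*Ddit4l*, which encodes an inhibitor of the growth kinase complex mTORC1, was well above background only in LPS+USP7i cells, on 2 of 2 arrays. Its log2 signal was 6.84 and 7.05 there, and 3.85, 3.61, 3.44, and 4.00 on the untreated and LPS arrays, which overlapped. The gene was at least 5.49-fold higher with LPS+USP7i than with LPS (adjusted p = 0.0141) and at least 8.18-fold higher than in untreated cells (adjusted p = 0.00792). These bounds hold on the scale of the main processing, where the log2 differences were 3.23 and 3.21. Under normexp correction, whose offset compresses dim signals, the differences from LPS and from untreated cells were 1.22 and 1.19, and with the deposited values 2.04 and 1.999.

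*Zmat3* encodes an RNA-binding zinc finger protein, and *Phlda3* a membrane-binding protein that restrains the kinase AKT. *Zmat3* was at 10.12 and 10.44 without treatment, 8.51 and 9.17 after LPS, and 9.86 and 9.76 after LPS+USP7i. *Phlda3* was at 12.89 and 13.25, 11.46 and 11.93, and 12.48 and 12.14 in that order. For both genes the 3 groups were separate, with untreated cells highest and LPS lowest. *Zmat3* fell by 1.45 with LPS (adjusted p = 0.0347) and *Phlda3* fell by 1.37 (adjusted p = 0.0329). The differences of 0.97 and 0.62 between LPS+USP7i and LPS did not pass (adjusted p = 0.124 and 0.259). *Zmat3* passed there with normexp correction (adjusted p = 0.0167) and with dim probes left out (0.0408), in a range of 0.0167 to 0.329.

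**Figure D3:**
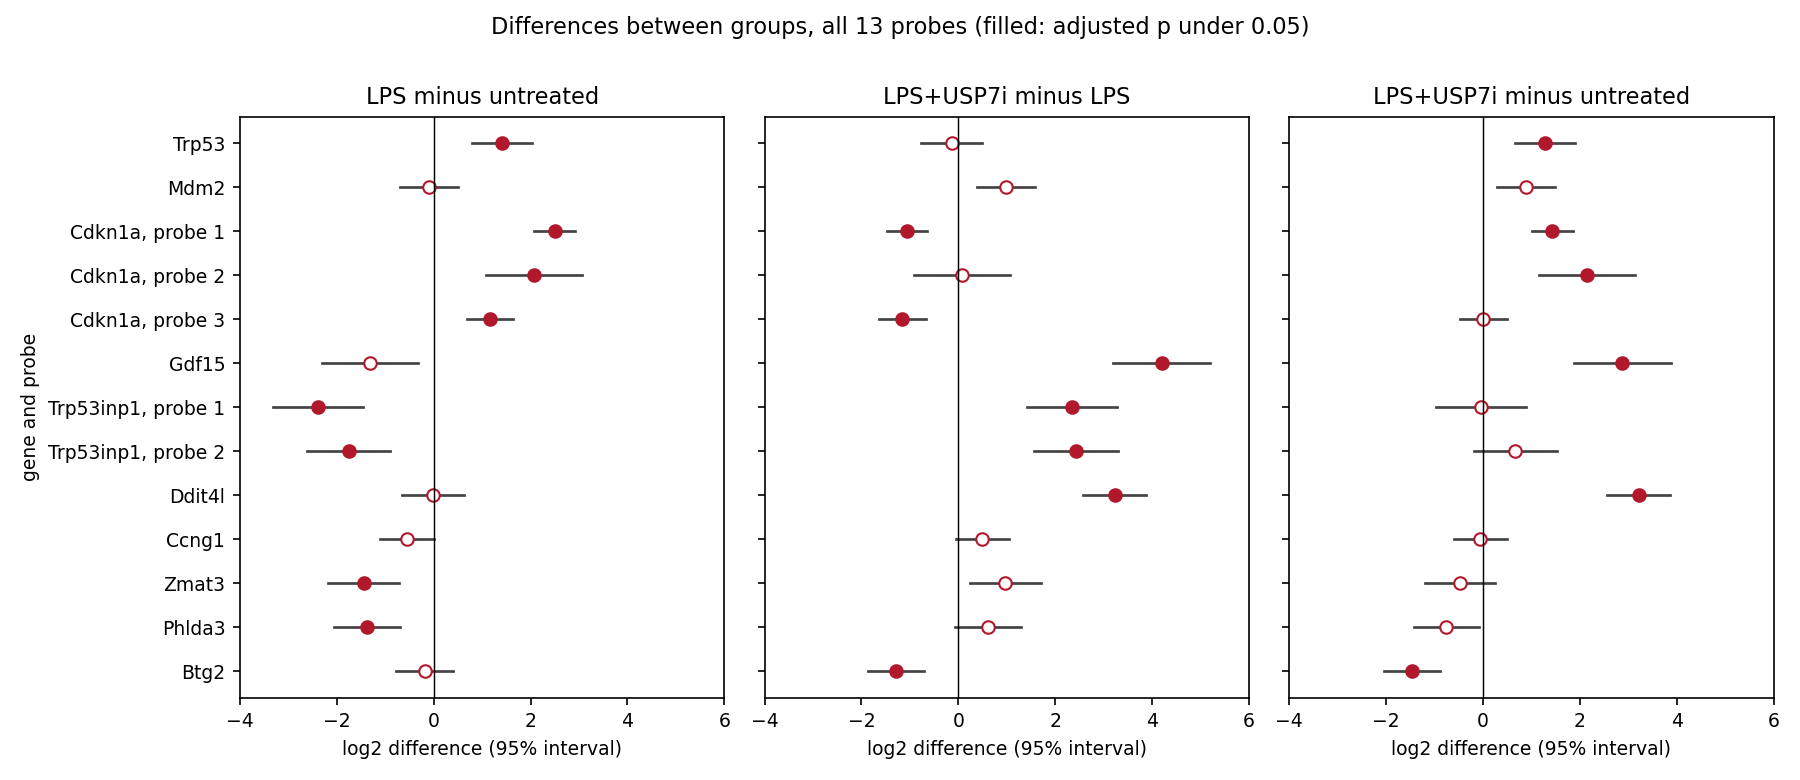
Log2 difference between groups for all 13 probes with its 95% interval, filled where the adjusted p is under 0.05; the panels share their LPS or untreated arrays. In LPS+USP7i compared with LPS, *Gdf15* (4.20) lies furthest to the right and *Btg2* (−1.28) furthest to the left. *Ddit4l* is drawn at its fitted difference from signals not well above background in LPS and untreated cells, so its place is not ranked.

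These calls rest on few arrays. With 2 arrays a group, the smallest two-sided p that exact permutation allows is 0.333, and limma with only the 2 groups compared passed 0 of the 10 genes for the inhibitor against LPS alone, although 5 were higher and 2 lower at an unadjusted p under 0.05, beside 4333 and 3681 of all genes. Leaving out either array of the third group repeats the fit of the 2 groups compared, because an array left alone in its group adds nothing to the residual spread. With any array left out, fewer of all genes also passed in each comparison than in the main fit. A smaller count among the 10 is therefore not particular to them. Without LPS replicate 1 or without LPS replicate 2 only *Ddit4l* passed (1 of 10). Without LPS+USP7i replicate 1, 3 passed (*Gdf15*, *Ddit4l*, and *Btg2*), and without LPS+USP7i replicate 2, 5 passed, with *Mdm2* in place of *Cdkn1a*. In LPS compared with untreated cells, 1 gene passed without untreated replicate 1, untreated replicate 2, or LPS replicate 1, which was *Cdkn1a* each time, and *Cdkn1a* and *Zmat3* passed without LPS replicate 2. The fit of only these 2 groups passed 4 (*Trp53*, *Cdkn1a*, *Gdf15*, and *Trp53inp1*). In LPS+USP7i compared with untreated cells, *Ddit4l* alone passed without untreated replicate 1, 0 passed without untreated replicate 2 (5 higher and 1 lower at an unadjusted p under 0.05, beside 3193 and 4987 of all genes), and 2 (*Cdkn1a* and *Ddit4l*) passed in the fit of only these 2 groups. Without LPS+USP7i replicate 1, 4 passed, *Trp53* no longer among them, and without LPS+USP7i replicate 2, 5 passed, with *Mdm2* in place of *Trp53*.

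Scaling each array to its 75th percentile moved the median log2 difference of all probes to 0.51 for LPS compared with untreated cells and to 0.55 for LPS+USP7i compared with untreated cells, and left it at 0.0023 for LPS+USP7i compared with LPS. Under it, 12184 genes were higher and 4051 lower with LPS than in untreated cells, in place of 2779 and 4446. For LPS+USP7i compared with untreated cells, 12216 were higher and 3363 lower, in place of 2144 and 3040. Under that scaling, *Trp53* was 1.44 and *Cdkn1a* 2.99 higher with LPS, both above the shift, and *Trp53inp1*, *Zmat3*, and *Phlda3* had differences of −2.34, −1.38, and −0.98. *Mdm2* differed by 0.48 between LPS and untreated cells, close to the shift, where quantile normalization gave −0.10, and neither value passed. Between LPS+USP7i and untreated cells it differed by 1.27 under that scaling, above the shift, and passed there.

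Other p53 target genes were taken from 3 lists that held none of the 10 genes. In the fit of only LPS and LPS+USP7i, 0 genes passed in these lists and in the 3 that follow them. Beside the counts of all these lists, 5.51% of all genes were higher and 4.28% lower for LPS+USP7i against LPS. Those shares were 7.98% and 12.8% for LPS against untreated cells and 6.15% and 8.72% for LPS+USP7i against untreated cells. All these shares are of the main fit, where 1920 genes were higher and 1490 lower for LPS+USP7i against LPS. Normexp correction gave 2879 and 2377 of all genes there, and dim probes left out 2773 and 2366. For LPS against untreated cells, dim probes left out gave 3158 and 5198, in place of 2779 and 4446. Leaving out dim probes tested 25084 probes in place of 55680. Of 17 targets that act in cell cycle arrest and growth, 5 were higher and 0 lower with the inhibitor than with LPS alone (11 and 2 at an unadjusted p under 0.05 in limma, where 14.3% of all genes were higher and 11.7% lower), and the median log2 difference was 1.25. They included *Plk3* and *Plk2*, which encode polo-like kinases, with increases of 3.07 (adjusted p = 0.0410) and 1.34 (adjusted p = 0.0363). *Dusp1*, a phosphatase that switches off MAP kinases, rose by 2.36 (adjusted p = 0.0212). Without either LPS array 0 of the 17 passed, and normexp correction gave 9 higher and 2 lower and dim probes left out 11 and 2. With LPS compared with untreated cells, 1 of the 17 was higher and 3 were lower, with a median of −0.95; 75th percentile scaling gave 2 and 8, dim probes left out 1 and 9, and at most 1 was lower without any one of these 4 arrays. Set against untreated cells, 3 were higher and 3 lower with LPS+USP7i (median 0.30), and 0 to 4 and 0 to 1 with any one array left out.

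Of 17 targets that act in cell death, 2 were higher (11.8%) and 0 lower with LPS+USP7i than with LPS, and the median was 0.31. At an unadjusted p under 0.05 the counts were 5 and 4. Of all genes, 5.51% were higher and 4.28% lower, or 14.3% and 11.7% at an unadjusted p under 0.05. *Pmaip1*, which encodes the BH3-only protein NOXA, rose by 2.30 (adjusted p = 0.0409) and *Trp53i13* rose by 0.70 (adjusted p = 0.0206). Some alternatives gave both directions, with 3 higher and 4 lower under normexp correction and 2 and 3 with dim probes left out. The counts were also 1 and 2 with the deposited values and 2 and 2 with a trended prior. They were 2 and 0 with 75th percentile scaling, flagged spots kept, or the replicate block, and 3 and 0 with the mean of a gene's probes. Without either LPS array 0 passed, and without LPS+USP7i replicates 1 and 2 in turn the counts were 1 and 1, and 2 and 3. With LPS compared with untreated cells, 4 were higher and 4 lower, and LPS+USP7i compared with them gave 4 and 3 (median −0.03), or 0 to 2 of each with any one array left out.

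Of 26 targets in repair, metabolism, and stress defence, 7 were higher and 2 lower with the inhibitor than with LPS alone (median 0.39). After LPS, 2 were higher and 10 lower than without treatment (median −0.73). The shares of all genes were 5.51% and 4.28% in the first comparison, and 7.98% and 12.8% in the second. *Sesn1*, which restrains mTORC1, was 1.72 higher with LPS+USP7i than with LPS (adjusted p = 0.0304). With LPS it was 5.64 lower than without treatment (adjusted p = 0.00289). *Lpin1*, a phosphatidate phosphatase, was not well above background in LPS cells (4.55 and 4.83) and read 6.96 and 6.59 with the inhibitor, at least 4.23-fold higher (adjusted p = 0.0168). That bound equals the measured fold, since both LPS signals were brighter than the faintest signal well above background on their array. *Dram1*, which promotes autophagy, went the other way and fell by 2.13 (adjusted p = 0.0182). For LPS+USP7i against untreated cells, 6.15% of all genes were higher and 8.72% lower. Normexp correction gave 2745 and 4006 of all genes there, and dim probes left out 2818 and 3923, in place of 2144 and 3040. Set against untreated cells, LPS+USP7i gave 0 higher and 9 lower with a median of −0.50; the counts were 3 and 11 under normexp correction, 2 and 12 with dim probes left out, and 0 and 1 to 5 with any one array left out. For LPS+USP7i against LPS, with each LPS or LPS+USP7i array left out in turn, the median of the 26 was between 0.26 and 0.49. Each time fewer of the 26 passed as higher with the inhibitor than in the main fit.

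Genes of the cell cycle that p21 is known to lower gave different counts against the 2 references. Of 25, 1 was higher and 0 were lower with the inhibitor than with LPS alone (1 and 6 at an unadjusted p under 0.05), and the one was *E2f2*, a transcription factor of S phase, with 1.68 (adjusted p = 0.0294). The median of the 25 was −0.49, and 5.51% of all genes were higher and 4.28% lower, or 14.3% and 11.7% at an unadjusted p under 0.05. With the replicate number as a block, 0 of the 25 were higher and 4 lower. With dim probes left out 1 was higher and 2 were lower, and 0 passed without either LPS array or LPS+USP7i replicate 1. Relative to untreated cells, 0 were higher and 11 lower with LPS+USP7i (0 and 21 at an unadjusted p under 0.05, where 12.2% of all genes were higher and 16.6% lower; median −1.63), and 1 was higher and 8 lower with LPS (median −0.99). At the adjusted threshold, 6.15% of all genes were higher and 8.72% lower with LPS+USP7i, and 7.98% and 12.8% with LPS. The 11 became 19 with normexp correction or dim probes left out and 3 to 7 with any one array left out, and the 8 became 15, 14, and 3 to 7. Of all genes, 4006 were lower with LPS+USP7i than in untreated cells under normexp correction and 3923 with dim probes left out, in place of 3040. With LPS, 5323 and 5198 of all genes were lower than in untreated cells, in place of 4446. Since the comparisons share arrays, the counts of the 25 were not tested against each other.

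*Gdf15* is also known to answer to stress factors other than p53, and genes of 2 such responses are given beside it. Of all genes, 5.51% were higher and 4.28% lower for LPS+USP7i against LPS, and 6.15% and 8.72% for LPS+USP7i against untreated cells. At an unadjusted p under 0.05 in limma, 14.3% were higher and 11.7% lower for LPS+USP7i against LPS. Normexp correction gave 2879 higher and 2377 lower of all genes there, in place of 1920 and 1490. Of 22 targets of NRF2, the factor that answers oxidants and electrophiles, 13 were higher and 0 lower with the inhibitor than with LPS alone (20 and 0 at an unadjusted p under 0.05), a share of 59.1%, with a median of 1.77. Without any one LPS or LPS+USP7i array 5 to 8 were higher, and with normexp correction 18, with 0 lower each time. *Hmox1*, heme oxygenase 1, rose by 4.53 (23.1-fold, adjusted p = 0.0113), *Osgin1* rose by 4.12 (adjusted p = 0.0215), and *Srxn1*, sulfiredoxin, rose by 3.97 (adjusted p = 0.0144). Of 25 genes of the ATF4 response, which answers amino acid shortage and stress of the endoplasmic reticulum, 9 were higher and 2 lower, with a median of 0.71. Without any one LPS or LPS+USP7i array 2 to 7 of these were higher and at most 1 lower. *Chac1*, which degrades glutathione and was well above background on 1 of 2 LPS arrays, rose by 2.89 (adjusted p = 0.0187), and *Trib3*, a pseudokinase, rose by 2.73 (adjusted p = 0.0151). *Slc7a11*, a cystine transporter that both lists hold, rose by 2.20 (adjusted p = 0.0407). Compared with untreated cells, LPS+USP7i gave 12 higher and 0 lower of the NRF2 targets (median 1.53; 5 to 9 higher with any one array left out) and 8 higher and 1 lower of the ATF4 genes (median 0.51; 1 to 7 higher). *Sesn2* and *Ddit4* are shared by the ATF4 list and the list of repair, metabolism, and stress defence. The part of these responses in the values of the 10 genes was not tested.

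**Figure D4:**
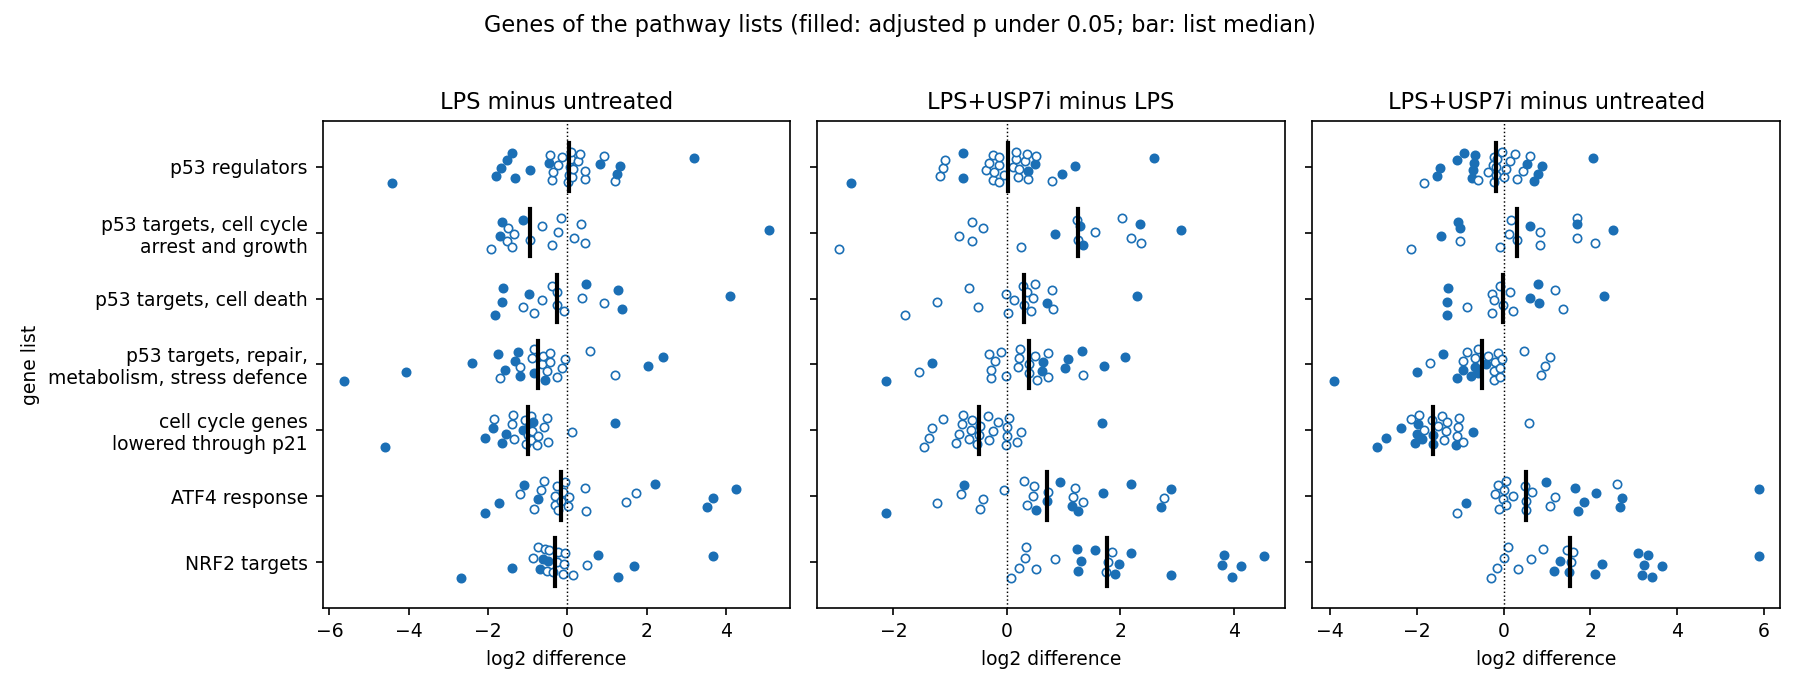
Log2 difference of each gene of 7 lists in the 3 comparisons, by its brightest probe; filled points have an adjusted p under 0.05, the vertical bar is the list's median, and x axes differ between panels. NRF2 targets lie furthest to the right in LPS+USP7i compared with LPS (median 1.77), and cell cycle genes lowered through p21 furthest to the left in LPS+USP7i compared with untreated cells (median −1.63).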

How the data were processed

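The deposited scanner files hold spot intensity from 1-color Agilent arrays, extracted and background-corrected with Feature Extraction 10.7.3.1 per the file headers. The authors also deposited log2 values normalized between arrays, which correlated (r = 0.99997) with normexp-corrected, quantile-normalized signals and were used as an alternative. Here the log2 processed signal of 59305 non-control spots was quantile-normalized, flagged outlier spots (119 to 172 per array) were left out, and spots of a probe were averaged. limma 3.58.1 in R 4.3.3 fitted all 6 arrays together (residual degrees of freedom 3, prior 1.05), with Benjamini-Hochberg adjustment over 55680 probes and a threshold of 0.05. Genes carry the name in the files and are represented by their brightest probe. Between 25002 and 27467 spots per array were well above background, and 0 were saturated. Intervals (95%) hold per probe and are not adjusted. The members and gene lists were chosen with earlier results of these data known. Besides the 10 genes, *Usp7* and *Mdm4* are named, with up to 3 genes per list that passed with LPS+USP7i against LPS and had the largest absolute difference. Alternatives covered scaling, background, filters, prior, design, probe rule, threshold, and each array left out.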

Additional observations from a re-analysis of the deposited data

How the results depend on the processing

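*Cdkn1a*, *Gdf15*, *Trp53inp1*, *Ddit4l*, and *Btg2*, by the probes or probe means used, kept the sign of their difference between LPS+USP7i and LPS under the 15 alternatives that give a difference. Several of these left the difference at its main value, so the sign could not change there. They were dim probes left out, flagged spots kept, a trended prior, the fit of 2 groups, the replicate block, and either untreated array left out. For *Gdf15*, *Ddit4l*, and *Btg2*, which have a single probe each, the mean of a gene's probes left it there as well. Of the members' differences under the alternatives, 362 stayed on their side of the threshold, 72 no longer passed it and 16 newly passed it. With a log2 difference of at least 1 required as well, 2101, 4242, and 3004 genes passed for LPS+USP7i against LPS, LPS against untreated cells and LPS+USP7i against untreated cells, in place of 3410, 7225, and 5184. With 75th percentile scaling, 16235 and 15579 genes passed in the latter 2 comparisons. For LPS+USP7i against LPS, 5256 genes passed with normexp correction and 5139 with dim probes left out, where fewer probes were tested. Fits in limma of only the 2 groups compared, which have fewer residual degrees of freedom, passed 0 genes and 0 of the 10 for LPS+USP7i against LPS (4333 genes higher and 3681 lower at an unadjusted p under 0.05), and 3306 genes and 2 of the 10 for LPS+USP7i against untreated cells. With each array left out in turn, between 0 and 3095 genes and between 0 and 5 of the 10 passed for LPS+USP7i against LPS, 2789 to 6616 and 1 to 4 for LPS against untreated cells, and 1043 to 3869 and 0 to 5 for LPS+USP7i against untreated cells; a group left with 1 array was assumed to vary like the others, and leaving out an array of the third group repeats the fit of 2 groups. Other causes were not tested.

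With the replicate number as a block, 2 of the 10 genes (*Gdf15* and *Ddit4l*) passed for LPS+USP7i against LPS and *Cdkn1a*, *Trp53inp1*, and *Btg2* did not (adjusted p of 0.0631, 0.0649, and 0.0608), 4 passed for LPS against untreated cells, without *Phlda3* (0.0576), and 5 for LPS+USP7i against untreated cells. Of the 25 cell cycle genes lowered through p21, 0 were then higher and 4 lower for LPS+USP7i against LPS and 20 were lower against untreated cells, with 0 higher and 17 lower for LPS against untreated cells, and 3 of the 17 arrest and growth targets were higher and 1 lower with the inhibitor than with LPS. Deviations of same-numbered arrays from their group means correlated with r of 0.398 to 0.468 over 20705 probes, but with 2 numbers, which also mark the slide column, the labels do not say that a number marks a shared experiment. Signal over background limits *Ddit4l*, which has only bounds against both other groups.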
